A study of Mus musculus with 67 samples.

Results

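The respiratory chain and ATP synthase genes of the mouse striatum were taken as every array feature whose single gene symbol begins with Nduf, Sdh, Uqcr, Cox followed by a digit, or Atp5, a rule that used no measured value. It gave 55 of the 8448 features and, after features sharing a gene were averaged, 47 of the 4209 named genes. Of these, 18 belong to complex I, 3 to complex II, 3 to complex III, 9 to complex IV and 14 to complex V, and 4 of the 47 (Ndufaf3, Sdhaf2, Cox10 and Cox14) encode assembly factors rather than subunits. Striatal RNA of 67 C57BL/6 mice, 1 filter per mouse, was radiolabelled and hybridised to the B filter of a mouse cDNA array on nylon, to ask how age, diet and sex relate to transcript levels. Mice fed ad libitum (AL) were juvenile (17 to 44 days), young (169 to 194 days), middle-aged (476 to 499 days) or old (704 to 743 days), with 5 males and 5 females at each age. Mice on caloric restriction (CR), in which a fortified feed was reduced stepwise from early adulthood, were young (4 males and 5 females, 174 to 194 days), middle-aged (5 and 5, 472 to 499 days) or old (3 males and 5 females, 673 to 743 days). Since the 3 males of the old CR group were each 673 days of age and the old AL males were aged 714 to 743 days, diet and age cannot be told apart within old males. All mice came from a single inbred strain with no engineered allele named, and individual mice are the replicates.

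The complexes sit in the inner mitochondrial membrane. Complex I takes electrons from NADH and complex II from succinate, complex III passes them to cytochrome c, complex IV hands them to oxygen, and complex V uses the resulting proton gradient to make ATP. Every gene described here is nuclear, and its product must be imported and joined to the subunits encoded by mitochondrial DNA, which complex II alone lacks. Neurons of the striatum meet most of their ATP demand in this way, and inhibitors of complex II are known to injure them.

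All values are Z scores, in which each filter's 8448 features have a mean of 0 and an SD of 1, so a difference is given in Z units and is not a fold change. A score below 0 marks a feature under its filter's mean, and scores of different cDNAs do not order their transcripts. The values of 2 filters (old AL male 5 and old AL female 5) ran in the opposite feature order, with correlations of 0.135 and 0.132 with the median profile as deposited and 0.992 for both after they were turned end to end, and they were used turned. A further 8 filters correlated with the median profile at only 0.925 to 0.946, against at least 0.976 for the other 59. These 8 lay 1 each in 8 of the 14 groups of age, diet and sex, and 7 were of adults, so results that rest on them are given with and without them. The tissue was bulk, so fewer cells of a type and less RNA per cell cannot be told apart. Of 23 striatal neuron markers listed, 7 were on the filter, and 6 of these (Actn2, Arpp19, Meis2, Ppp1r1b, Rasd2 and Strn) had a mean score above 0, with a group median of the list between 0.146 in old AL and 0.196 in middle CR mice.

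Across the whole set, 32 of the 47 members had a mean score above 0 over the 57 adults and entered the test, 13 of complex I, 1 of complex II, 2 of complex III, 6 of complex IV and 10 of complex V. The 15 others were Ndufaf3, Ndufb5, Ndufb7, Ndufb9, Ndufc1, Sdha, Sdhc, Uqcrb, Cox14, Cox5a, Cox7a2, Atp5g2, Atp5mpl, Atp5o and Atp5pb, and they are described by level only. In none of the 15 comparisons of age, diet or sex did any member pass an adjusted p of 0.05 in limma with equally weighted filters, and no row of the whole array did (0 of 3904 among adults, 0%). The means of the 6 adult groups of age and diet spanned, for a tested member, a median of 0.0884 Z units, while mice of the same group had a median SD of 0.154. The same quantities were 0.0889 and 0.160 over all 3904 rows. Among these adult groups Atp5md, a small membrane subunit of ATP synthase, was the 1 tested member of 32 whose means spanned more than its SD within groups (0.0621 against 0.0574), as 154 of the 3904 rows did. Its score averages 2 features that correlated at -0.801, so their scatter partly cancels in that SD. In middle against young AL mice its standard error was 0.0311, against 0.0840 and 0.0677 for the features singly.

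Mean scores of the complexes lay close together in the 7 groups. The 18 genes of complex I averaged between 0.274 ± 0.0542 (SD, n = 10) in middle AL and 0.312 ± 0.0670 (n = 10) in young AL mice. The 3 genes of complex II averaged between -0.0682 ± 0.0862 (n = 10) in middle CR and -0.00733 ± 0.140 (n = 10) in young AL mice. The complex III mean, over 3 genes, ran from 0.670 ± 0.0729 (n = 10) in middle CR to 0.715 ± 0.0423 (n = 10) in young AL mice. In each of these complexes the range of group means was smaller than the SD within most groups, and the mice of all 7 groups overlapped. The 9 genes of complex IV averaged between -0.0313 ± 0.0820 (n = 10) in middle AL and -0.00272 ± 0.0848 (n = 9) in young CR mice. Those of complex V averaged between 0.345 ± 0.0675 (n = 10) in middle CR and 0.381 ± 0.0820 (n = 9) in young CR mice. Without the 8 filters, complex I ran from 0.262 in juvenile AL to 0.285 in young AL mice. Complex II then ran from -0.0656 in middle CR to 0.0279 in young AL mice, and complex III from 0.661 to 0.701 in the same groups. Complex IV ran from -0.0222 in middle CR to 0.0201 in old CR mice, and complex V from 0.341 in middle CR to 0.387 in young CR mice.

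**Figure D1:**
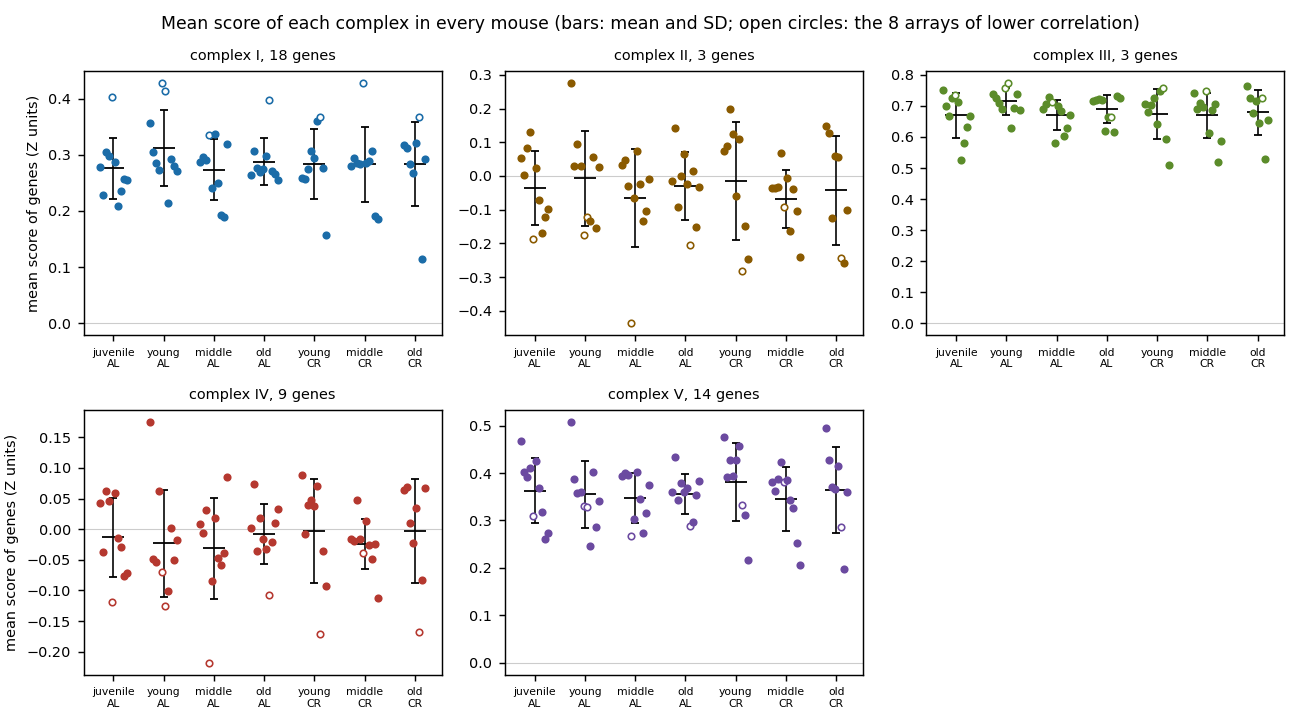
Mean Z score of the member genes of each complex (vertical axes) in every mouse, by age and diet (horizontal axes), with bars for the group mean and SD. All 7 groups overlap in each complex. The open circles, the 8 filters of lower correlation, lie high for complex I (up to 0.428 in young AL). They lie mostly low for complexes II and IV (down to -0.437 and -0.218 in middle AL). The open circle of middle CR is not low (-0.0917 and -0.0394), since other mice of that group reach -0.240 and -0.112.

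Nuclear respiratory genes are classically tied together by promoter elements bound by NRF-1, by the ETS factor GABP (NRF-2) and by YY1, so RefSeq promoters (GRCm38.p6, 250 bases before to 50 after the start) were searched on both strands for the letters GCATGCGC (NRF-1), ACTTCCGG (ETS/GABP) and AAGATGGC (YY1). Promoters were found for 39 of the 47 members, 42 promoters in all. The NRF-1 letters were in 6 of the 42 (14.3%) and in 2.71% of all 32851 promoters, the ETS/GABP letters in 4 (9.52%) and in 3.89%, and the YY1 letters in 6 (14.3%) and in 2.75%. At least 1 of the 3 was in 14 member promoters (33.3%) and in 8.83% of all. A match is a description of these letters and not a bound site. The windows shown are those of members that recur below or that stand for each element in complexes III to V. Each is written 5′ to 3′ on the gene's strand, with the element or its reverse complement in capitals, and the NRF-1 letters overlap their own reverse complement where gcGCATGCGC occurs.
Uqcr11, chr10:80406869-80406898, minus strand, ETS/GABP: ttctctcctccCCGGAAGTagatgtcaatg
Cox10, chr11:64079481-64079510, minus strand, ETS/GABP: agcgctgggagCCGGAAGTgacaagaggaa
Cox6a1, chr5:115349100-115349129, minus strand, NRF-1: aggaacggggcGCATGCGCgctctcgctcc
Atp5k, chr5:108434429-108434458, minus strand, NRF-1: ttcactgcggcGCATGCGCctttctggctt
Atp5g2, chr15:102671069-102671098, minus strand, NRF-1: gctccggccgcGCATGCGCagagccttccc
Atp5j, chr16:84835046-84835075, minus strand, YY1: aaagtgtaggaAAGATGGCggagtcttagc
The element lay 58 bases before the start in Uqcr11, 19 in Cox10, 152 in Cox6a1, 40 in Atp5k, 32 in Atp5g2 and 80 in Atp5j. In complex I, Ndufa8 held the NRF-1 letters, Ndufs3 the ETS/GABP letters, and Ndufc1 and Ndufs7 the YY1 letters.

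Ageing on the AL diet was compared first, beginning with young against middle-aged mice. Of the 32 tested members, 8 were higher and 24 lower in middle-aged mice, with a median difference of -0.0230 against 0.001 over all 3904 rows, and 0 members were below an unadjusted p of 0.05 in limma, as 0.845% of all rows were. Complex I had 11 of 13 members lower, with a median of -0.0300, and complex V had 6 of 10 lower and a median of -0.00525. Ndufv2, an iron-sulfur subunit of the NADH-oxidising tip of complex I, ranged from 0.56 to 0.78 around a median of 0.66 in young mice and from 0.34 to 0.80 around 0.585 in middle-aged mice. Its difference of -0.0770 ± 0.0490 (SE, unadjusted p = 0.122, limma) had a 95% confidence interval of -0.175 to 0.0214. Ndufa8, an accessory subunit, differed by -0.0880 ± 0.0591 (unadjusted p = 0.143, limma) and Ndufs1, the large iron-sulfur subunit that carries electrons away from the flavin, by -0.0710 ± 0.0509 (unadjusted p = 0.169, limma). The values of young and middle-aged mice overlapped for all 3 genes. Over the 32 members the confidence intervals reached no lower than -0.239 and no higher than 0.236.

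Between middle and old age on the AL diet the balance of signs was the opposite, with 22 members higher and 10 lower and a median of 0.0143 against 0.001 over all rows, in a comparison that shares the middle-aged mice with the one before. The member with the lowest p was Ndufs1. Its scores ran from 0.15 to 0.45 around a median of 0.285 in middle-aged mice and from 0.31 to 0.65 around 0.38 in old mice, so that the lowest old mouse stood above the median of the middle-aged group although the ranges overlapped. The mean was 0.302 in middle-aged and 0.409 in old mice, a difference of 0.107 ± 0.0509, and juvenile mice had a mean of 0.280 and young mice of 0.373. Ndufs1 was the only member below an unadjusted p of 0.05 (unadjusted p = 0.0406, adjusted p = 1, limma), 1 of 32, beside 0.333% of all rows. Without the 8 filters it differed by 0.115 ± 0.0505 (unadjusted p = 0.0276, adjusted p = 1.00, limma), again as 1 of 31 members, beside 0.92% of 3915 rows. Without the 2 turned filters it differed by 0.107 (unadjusted p = 0.0581, adjusted p = 1, limma). The study's methods used a threshold of a Z-ratio beyond 1.5 with an unadjusted p under 0.05. By that threshold Ndufs1 passed as 1 of 32 members, beside 0.565% of 3895 rows. The analysis of variance that the study ran next was not applied here.

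Complex IV had 5 of 6 members higher in old than in middle-aged AL mice, with a median of 0.05. Cox5b, a nuclear subunit on the matrix side of cytochrome oxidase, ran from -0.13 to 0.33 around 0.265 in middle-aged mice and from 0 to 0.44 around 0.295 in old mice, and differed by 0.0870 ± 0.0665 (unadjusted p = 0.197, limma). Cox6a1, a subunit at the interface of the cytochrome oxidase dimer, differed by 0.0650 ± 0.0626 (unadjusted p = 0.304, limma). The largest value in the other direction was that of Ndufa12, an accessory subunit of complex I, at -0.0850 ± 0.0788 (unadjusted p = 0.286, limma), or at -0.0368 (unadjusted p = 0.659, limma) without the 2 turned filters. The confidence intervals of the 32 members lay between -0.261 and 0.253.

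Over the full adult span on the AL diet, old against young, 15 members were higher and 17 lower, with a median of -0.0185 against -0.001 over all rows. None was below an unadjusted p of 0.05 in limma, beside 0.307% of all rows. Complexes I and IV differed in the sign of their medians, -0.0320 over 13 members and 0.0458 over 6, a contrast that was not tested. The extremes of complex I were Ndufa12 (-0.100 ± 0.0788) and Ndufs7 (0.0970 ± 0.0958), a core subunit near the ubiquinone site. Without the 2 turned filters Ndufa12 differed by -0.0518. The extremes of complex IV were Cox10 (-0.0920 ± 0.0981), the enzyme that makes the heme A precursor, and Cox5b (0.101 ± 0.0665). In complex V they were Atp5k, the small subunit e (-0.0680 ± 0.0516), and Atp5g3, which encodes subunit c of the rotor ring (0.0720 ± 0.0808, or 0.0438 without the turned filters). Sdhaf2, which promotes attachment of flavin to the succinate dehydrogenase subunit Sdha and was the tested member of complex II, differed by -0.0250 ± 0.0559, or by 0.00525 without the turned filters. In complex III, Uqcr11, the smallest accessory subunit, differed by -0.0210 ± 0.0798 and Uqcrc2, a core protein, by -0.0315 ± 0.0677. The member with the lowest p was Ndufv2, whose old mice had a median of 0.585 and which differed by -0.0890 ± 0.0490 (unadjusted p = 0.0753, adjusted p = 1, limma), or by -0.0583 (unadjusted p = 0.252, adjusted p = 1, limma) without the 2 turned filters. Confidence intervals of the members lay within -0.289 to 0.290 in this comparison.

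**Figure D2:**
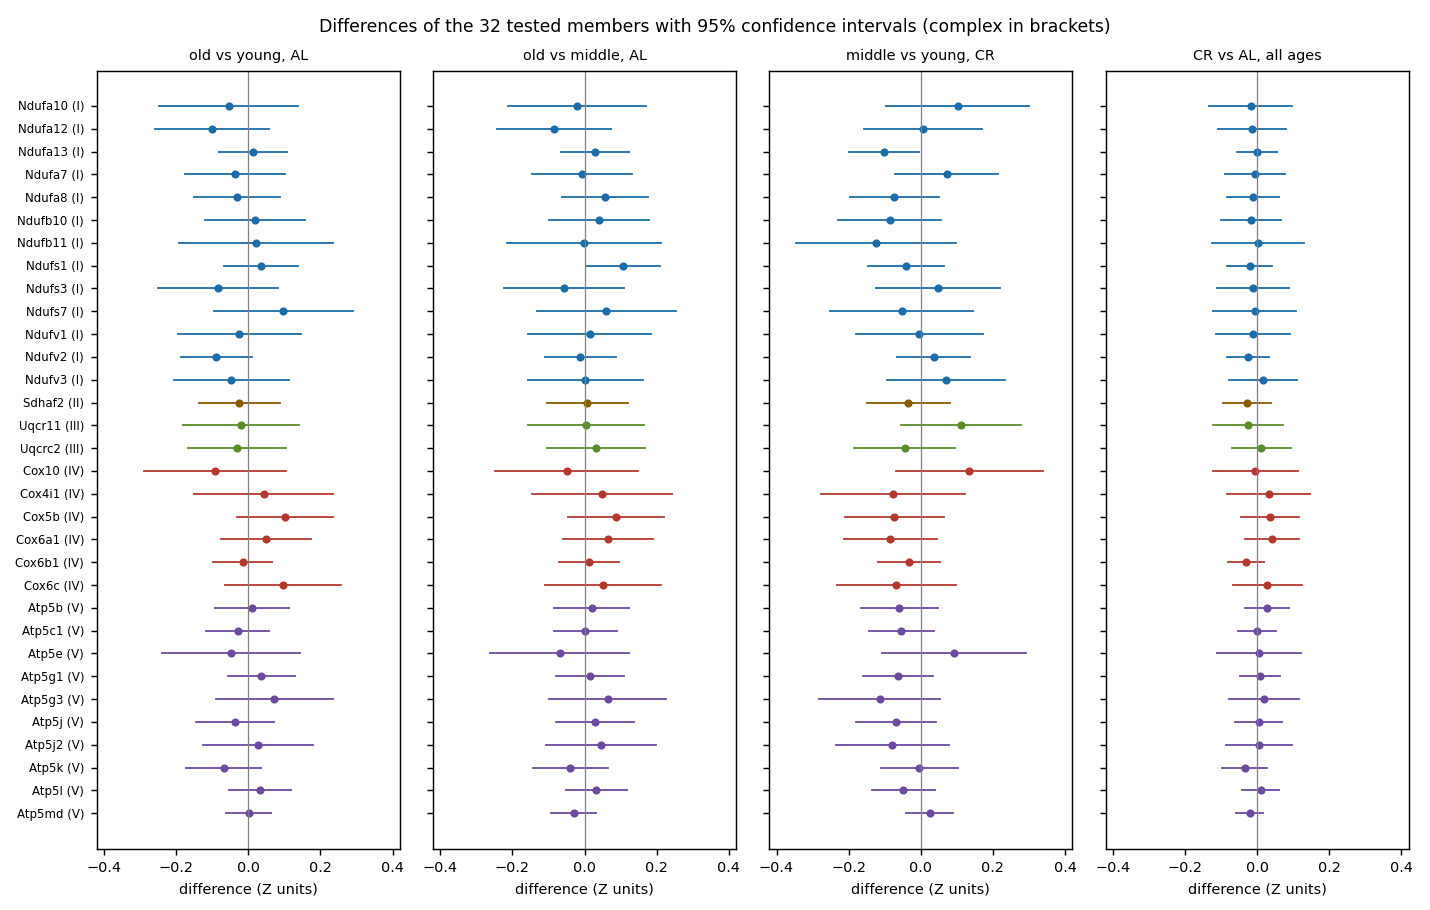
Difference of each of the 32 tested members in Z units (horizontal axes) with its 95% confidence interval from limma, in 4 comparisons, one row per gene coloured by complex. The intervals exclude 0 only for Ndufs1 in old against middle AL mice (0.107) and Ndufa13 in middle against young CR mice (-0.101), and neither passed adjustment.

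On caloric restriction, middle-aged mice were compared with young mice in the same way, and here the number of members below an unadjusted p of 0.05 changed with the filters included and their weights. Over all 57 adults, 10 members were higher and 22 lower, with a median of -0.0468 against -0.00875 over all rows. Ndufa13 (GRIM-19), a complex I subunit also known as a cell death regulator, ran from 0.45 to 0.74 around a median of 0.69 in young CR mice and from 0.38 to 0.64 around 0.58 in middle CR mice. The ranges overlapped, and it was the 1 member of 32 below an unadjusted p of 0.05 (-0.101 ± 0.0483, unadjusted p = 0.0411, adjusted p = 0.893, limma), beside 2.18% of all rows. Complex V had 8 of 10 members lower (median -0.0568) and complex IV 5 of 6 (median -0.0704), with Cox10 as the exception in complex IV. Cox10 was higher by 0.135 ± 0.101 and Uqcr11 by 0.112 ± 0.0822, and neither was below an unadjusted p of 0.05.

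Without the 8 filters of lower correlation, 50 adult mice remained and 9 of 31 members were below an unadjusted p of 0.05 in limma, beside 18.4% of all 3915 rows, and none passed adjustment. Higher in middle CR mice were Cox10 (0.142 ± 0.0444), Uqcr11 (0.117 ± 0.0566) and Ndufv3, an accessory subunit of the NADH-oxidising tip (0.0898 ± 0.0360). Cox10 ran from -0.07 to 0.12 around 0.075 in 8 young CR mice and from 0.07 to 0.35 around 0.17 in 9 middle CR mice. These ranges shared only the scores between 0.07 and 0.12. Lower were the complex I subunits Ndufa13 (-0.110 ± 0.0458), Ndufb10 (-0.120 ± 0.0527) and Ndufb11 (-0.140 ± 0.0625), the cytochrome oxidase subunits Cox4i1 (-0.0958 ± 0.0464) and Cox6a1 (-0.119 ± 0.0537), and Atp5g3 (-0.117 ± 0.0515). Atp5g3 ran from 0.87 to 1.28 around 1.05 in the young and from 0.84 to 1.03 around 0.90 in the middle CR mice, so every middle CR mouse lay under the young median. The smallest adjusted p among the members was 0.201, that of Cox10.

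With every filter kept but weighted by its own scatter (limma array weights, 0.0871 to 0.168 for the 7 adult filters of lower correlation and 0.202 to 5.42 for the others), 5 of the 32 members passed an adjusted p of 0.05, beside 13.2% of all 3904 rows. They were Cox10, which was higher in middle than in young CR mice (0.168 ± 0.0465, adjusted p = 0.0181), and Cox6a1 (-0.144 ± 0.0418, adjusted p = 0.0234), Ndufb10 (-0.133 ± 0.0416, adjusted p = 0.0304), Ndufa13 (-0.113 ± 0.0357, adjusted p = 0.0310) and Atp5g3 (-0.128 ± 0.0432, adjusted p = 0.0404), which were lower. The share of members called was thus close to that of all rows. The members called encode an enzyme of heme A synthesis, a subunit of cytochrome oxidase, accessory subunits of complex I and a subunit of the ATP synthase rotor.

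These members were then set against the main axes of variation among the filters. The first principal axis of the 3349 features with no gene name carried 47.5% of their variance and the second 11.4%, and the score on the first axis was at least 2.23 in the 8 filters of lower correlation and at most 0.351 in all others. Cox10 had a correlation of 0.929 with this axis over the 57 adults, Uqcr11 of 0.895 and Ndufv3 of 0.913, while Cox4i1 stood at -0.890, Atp5g3 at -0.816, Ndufb11 at -0.801, Ndufb10 at -0.773, Cox6a1 at -0.570 and Ndufa13 at -0.124. These correlations include the filters of lower correlation, which had the highest scores on the axis, whereas the 9 members were picked without them. Correlations over the remaining adults alone were not computed. Over all 32 tested members, 24 had a correlation of the same sign as their difference between middle and young CR mice over all adults. They were these 9 and 15 of the 23 others. The sign was opposite in 8, among them Ndufv1 (a correlation of 0.916 and a difference of -0.00425), Ndufa8 (0.724 and -0.0730) and Atp5c1 (0.438 and -0.0541). Matching signs were not counted over all rows, so 24 of 32 cannot be judged against the array. The shares of members strongly correlated with the axis, given below, were smaller than those of all rows. Without the 8 filters the median score on the axis was -0.609 in young, -0.112 in middle and -0.105 in old CR mice. With both axes as terms in the model, 0 members passed adjustment, 2 were below an unadjusted p of 0.05 (Ndufa8 at -0.106, unadjusted p = 0.0145, and Ndufa13 at -0.0667, unadjusted p = 0.0417, limma) beside 6.92% of all rows, and the median over members was -0.00599. Whether the axes stand for the filters or for the mice was not tested.

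**Figure D3:**
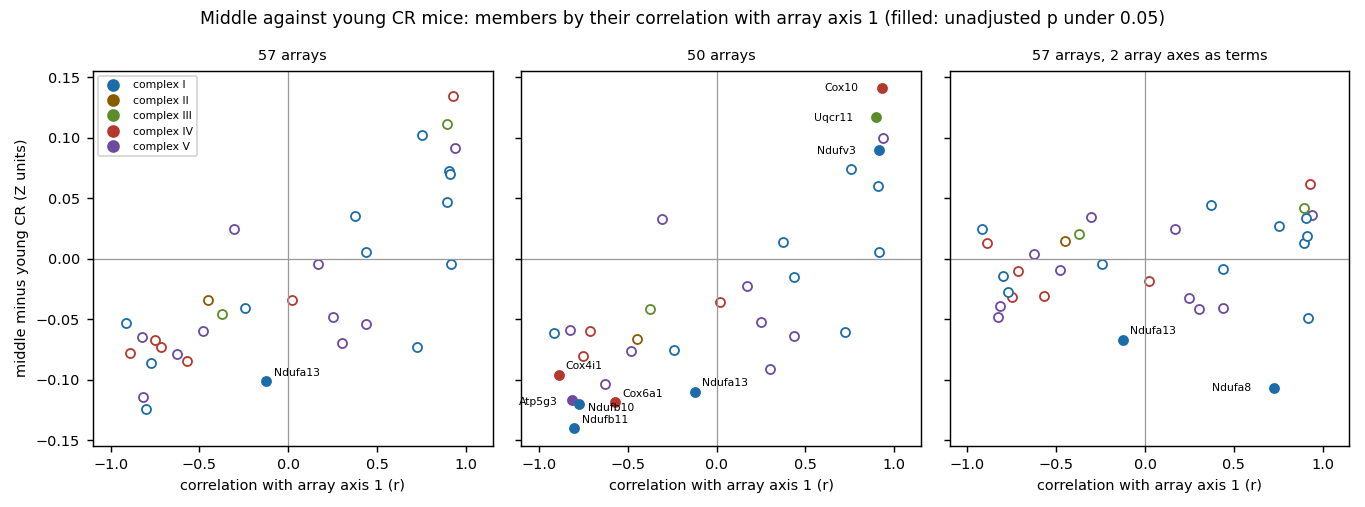
Difference between middle and young CR mice in Z units (vertical axes) against each member's correlation with the first array axis over 57 adults (horizontal axes), with all adult filters, without those of lower correlation and with both axes as terms. Filled points are below an unadjusted p of 0.05 in limma: 1 of 32, 9 of 31 and 2 of 32 members. In the middle panel the genes above 0 and named lie at the right (Cox10, Uqcr11, Ndufv3) and those below 0 mostly at the left.

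From middle to old age on CR, 20 members were higher and 12 lower (median 0.0165 against -0.002 over all rows), and 0 were below an unadjusted p of 0.05 in limma, beside 0.999% of all rows. Complex V had 8 of 10 members higher, with a median of 0.0389. Ndufa8 differed most (0.105 ± 0.0639, unadjusted p = 0.105, limma), with medians of 0.115 in middle and 0.175 in old CR mice. With the 8 filters left out, Cox6a1 (0.142 ± 0.0591, unadjusted p = 0.0205, limma) and Ndufs1 (0.124 ± 0.0571, unadjusted p = 0.0356, limma) were below 0.05, 2 of 31 members beside 7.02% of rows, with adjusted p of 0.634 and 0.660. With all adult filters kept, Ndufs1 differed on CR by 0.0633 ± 0.0550 (unadjusted p = 0.255, limma). Its score was thus higher in old than in middle-aged mice on both diets, without passing adjustment on either. The age by diet term for Ndufs1 was -0.0437 ± 0.0749 (unadjusted p = 0.563, limma) with all adult filters kept. Without the 8 filters that term was 0.00875 (unadjusted p = 0.909, limma), of the opposite sign.

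Old and young CR mice differed with 12 members higher and 20 lower, a median of -0.00792, and 0 members below an unadjusted p of 0.05 in limma beside 0.154% of all rows. The extremes were Ndufb11 (-0.137 ± 0.118) and Uqcr11 (0.0955 ± 0.0884). Leaving out the 8 filters, Ndufv3 alone was below 0.05 (0.0943 ± 0.0404, unadjusted p = 0.0243, adjusted p = 0.999, limma), 1 of 31 members beside 1.07% of rows. Array weights called 418 of the 3904 rows in this comparison and 0 of the 32 members.

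The diets were compared at each age. In young mice 13 members were higher and 19 lower under CR, with a median of -0.00975 against 0 over all rows. Ndufv2 ran from 0.56 to 0.78 around a median of 0.66 in AL mice and from 0.39 to 0.69 around 0.55 in CR mice, and was the 1 member below an unadjusted p of 0.05 (-0.106 ± 0.0505, unadjusted p = 0.0419, adjusted p = 0.850, limma), beside 0.487% of all rows. The median CR mouse lay just under the lowest AL mouse, while the upper CR values overlapped the AL range. Complex IV had 4 of 6 members higher under CR, with a median of 0.0907. They were Cox5b (0.109 ± 0.0686), Cox6c, a small membrane subunit (0.106 ± 0.0824), Cox4i1, the subunit through which ATP inhibits the enzyme (0.0996 ± 0.0992), and Cox6a1 (0.0818 ± 0.0645). Cox10 (-0.126 ± 0.101) and Cox6b1 (-0.0273 ± 0.0426) were lower, and none of the 6 was below an unadjusted p of 0.05. The young AL group held 2 filters of lower correlation and the young CR group 1. On the adult filters of lower correlation Cox4i1 (-0.514), Cox6c (-0.367), Cox5b (-0.288) and Cox6a1 (-0.206) were lower than on the others. Cox10 was higher there (0.534) and Cox6b1 shifted by -0.0101. The part of these filters in the signs was not tested.

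At middle age 14 members were higher and 18 lower under CR, and the largest differences were smaller than in young mice, from -0.0470 ± 0.0689 (Ndufb10) to 0.0510 ± 0.0957 (Ndufa10). None was below an unadjusted p of 0.05 in limma, beside 0.0768% of all rows. In old mice 15 were higher and 17 lower, from Ndufs7 at -0.0797 ± 0.104 to Ndufv3 at 0.0700 ± 0.0854, again with 0 below 0.05, beside 0.102% of all rows. Averaged over the ages, 15 members were higher and 17 lower under CR, with a median of -0.00239 and 0 below 0.05 beside 0.256% of all rows. This comparison had the narrowest intervals of diet, reaching from -0.133 to 0.147 over all 32 members, and Cox6a1 was the highest at 0.0411 ± 0.0375. By complex, 11 of 13 members of complex I were lower and 8 of 10 of complex V higher, with medians of only -0.0118 and 0.00501. In the fit without the 8 filters Cox6b1, a subunit on the intermembrane side of cytochrome oxidase, was the 1 member of 31 below 0.05 (-0.0545 ± 0.0263, unadjusted p = 0.0443, adjusted p = 0.999, limma), beside 0.664% of rows.

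The age by diet terms ask whether the age difference under CR departs from that under AL. For old against young mice 16 members were positive and 16 negative (median 0.00915), with 0 below an unadjusted p of 0.05 in limma beside 0.179% of all rows, and intervals between -0.478 and 0.478. Ndufv2, whose difference between old and young mice was negative under AL and positive under CR, had a term of 0.130 ± 0.0731 (unadjusted p = 0.0828, adjusted p = 0.917, limma). When the 8 filters were left out, Ndufv3 was the 1 member of 31 below 0.05 (0.110 ± 0.0541, unadjusted p = 0.0491, limma), beside 0.332% of rows. For old against middle-aged mice 19 members were positive and 13 negative, with 0 below 0.05 beside 0.0512% of all rows, and 9 of 10 members of complex V were positive with a median of 0.0265. These terms join 4 group means each, and their standard errors reached 0.159 and 0.157 among the members.

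Females and males were compared over all adults, 30 against 27 mice. Members were split into 15 higher and 17 lower in females (median -0.00569), 0 were below an unadjusted p of 0.05 in limma beside 0.179% of all rows, and the differences lay between -0.0429 (Ndufs3) and 0.0433 (Cox6c). Ndufs3 is a core subunit of the arm that leads to ubiquinone. Among the other 50 adult filters Ndufb11, the member encoded on the X chromosome, was lower in females (-0.0789 ± 0.0373) as the 1 member of 31 below 0.05, at unadjusted p = 0.0400 and adjusted p = 0.999 (limma), beside 1.76% of rows.

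**Figure D4:**
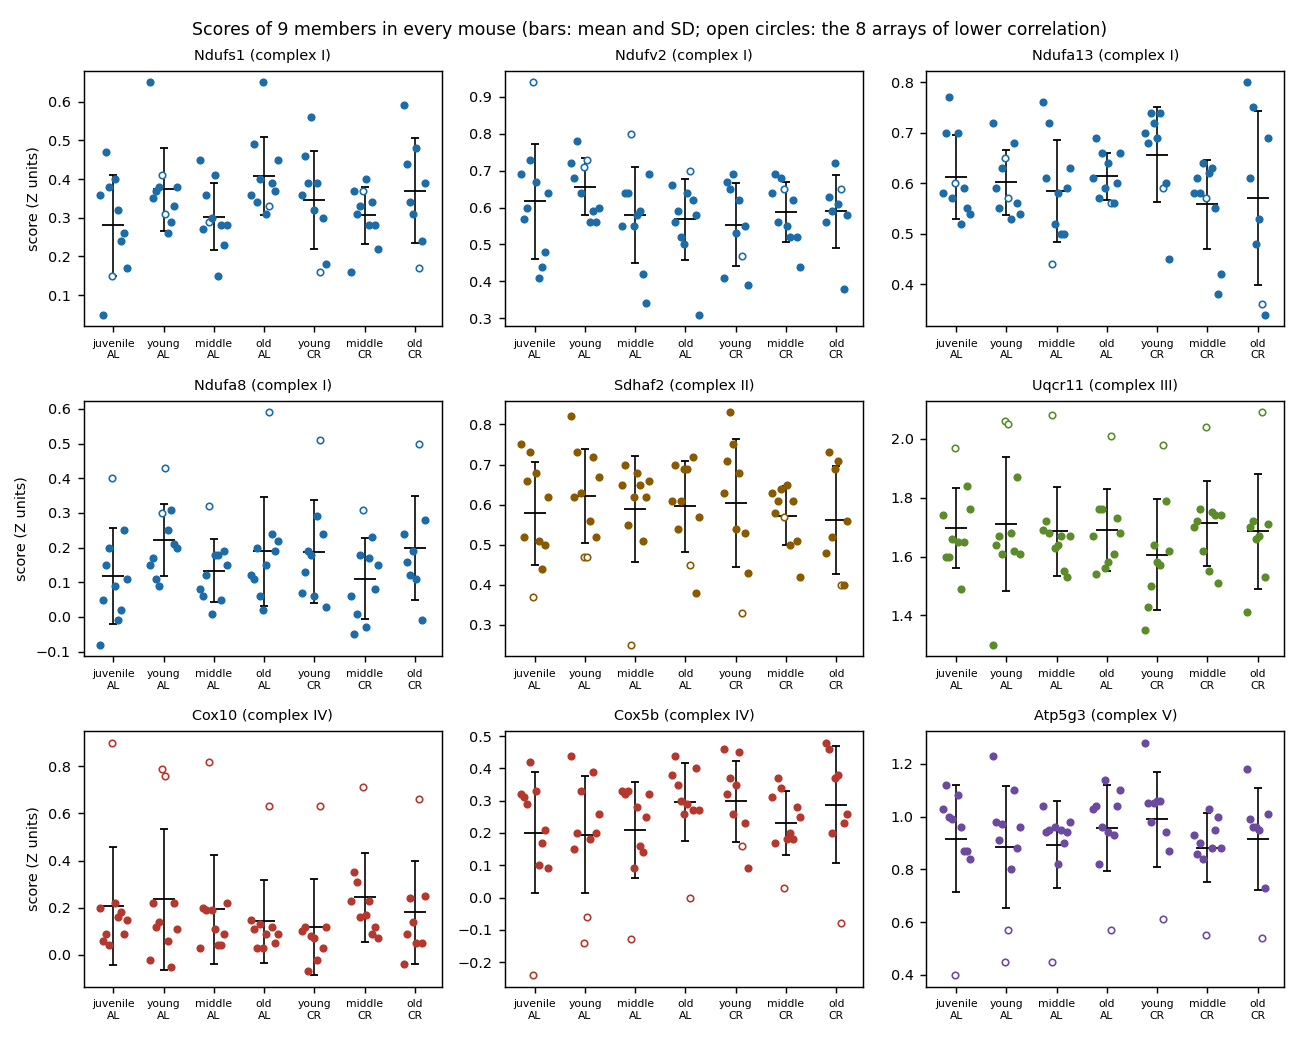
Z scores (vertical axes) of 9 members in every mouse by age and diet (horizontal axes), with bars for the group mean and SD. Open circles, the 8 filters of lower correlation, are the highest Cox10 value of every group (0.63 to 0.90) and the lowest Atp5g3 value of every group (0.40 to 0.61), while Ndufs1 and Ndufa13 show no such separation.

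Maturation was examined on the AL diet, young against juvenile mice. Of the 32 members tested in these 20 mice, 21 were higher and 11 lower in young adults, with a median of 0.0255 against 0.004 over all 3892 rows, and 0 were below an unadjusted p of 0.05 in limma beside 0.437% of all rows. Complex I accounted for 10 of the higher values among its 13 members, with a median of 0.0390. Ndufa8 ran from -0.08 to 0.40 around 0.10 in juveniles and from 0.09 to 0.43 around 0.205 in young adults, a difference of 0.104 ± 0.0598 (unadjusted p = 0.0975, adjusted p = 1, limma). Ndufs1 differed by 0.0930 ± 0.0576 (unadjusted p = 0.122, limma), and Ndufa7, another accessory subunit, by 0.0910 ± 0.0867 (unadjusted p = 0.306, limma). Complex V was split evenly, 5 higher and 5 lower, from Atp5md (-0.0635 ± 0.0657) to Atp5k (0.0570 ± 0.0719), and complex IV likewise, 3 and 3, from Cox6c (-0.0460 ± 0.0878) to Cox6b1 (0.0360 ± 0.0590). In complex III both tested members were higher, Uqcrc2 by 0.0295 ± 0.0637 and Uqcr11 by 0.0150 ± 0.0848, and in complex II Sdhaf2 differed by 0.0430 ± 0.0602.

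In both Ndufs1 and Ndufa8 the AL mean was higher in young than in juvenile mice, lower in middle-aged than in young mice and higher in old than in middle-aged mice, while the highest mean was that of old mice in Ndufs1 and of young mice in Ndufa8. For Ndufa8 the means were 0.118, 0.222, 0.134 and 0.190 and the SDs 0.140, 0.103, 0.0902 and 0.157 (n = 10 each), and the ranges of neighbouring ages overlapped. The medians were 0.10, 0.205, 0.135 and 0.17 for Ndufa8 and 0.29, 0.36, 0.285 and 0.38 for Ndufs1. Ndufa8 was 0.59 in old AL male 4, a filter of lower correlation (others 0.02 to 0.24). The young AL group held 2 such filters, and Ndufa8 was higher by 0.244 in the 7 adult ones than in the other 50. Ndufs1 was 0.65 in 1 young and 1 old AL mouse (others at most 0.41 and 0.49). Adult and maturation comparisons share the young mice, and middle-aged mice enter both adult steps.

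Within the juveniles, 5 mice of 33 to 44 days were compared with 5 of 17 to 21 days. With 33 members tested, now including Cox7a2, 16 were higher and 17 lower in the older juveniles, with a median of -0.00917, and 0 were below an unadjusted p of 0.05 in limma beside 0.822% of 3893 rows. Ndufa10, an accessory subunit of the complex I membrane arm, had the lowest p (0.166 ± 0.0923, unadjusted p = 0.0984, limma). Without the juvenile filter of lower correlation it differed by 0.236 ± 0.0811 (unadjusted p = 0.0101, adjusted p = 0.833, limma), as the 1 member of 32 below 0.05 beside 4.29% of rows. Atp5k (-0.153 ± 0.0995), Atp5l, subunit g (-0.111 ± 0.0693), and Atp5c1, the central stalk subunit gamma (-0.106 ± 0.0668), were the lowest p among members with negative differences. The intervals, -0.474 to 0.464, were the widest of the pairwise comparisons.

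Members varied together from mouse to mouse more than rows of the array at large. Over the 57 adults, after group means were removed, the median correlation of the 496 member pairs was 0.185 and that of all pairs of tested rows 0.000404. Pairs of the same complex had a median of 0.226 and pairs of different complexes 0.177, and complex V stood at 0.298, complex IV at 0.231 and complex I at 0.151. Points in these correlations share filters, and the filter axes moved with them. The median was 0.20 without the 8 filters (all rows -0.0279) and was 0.0172 once both axes were removed (-0.0350 within complexes). Without the 8 filters, pairs of the same complex (0.192) no longer stood above pairs of different complexes (0.204). Complex V then stood at 0.333, complex I at 0.155 and complex IV at -0.0342. Of the 32 members, 9 (28.1%) correlated above 0.5 with the first axis and 10 (31.2%) below -0.5, beside 37.5% and 36.1% of all rows.

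Correlations within a complex had both signs. Ndufv1, the flavoprotein that binds NADH, and Ndufs7 correlated with the first axis at 0.916 and -0.916, although both are core subunits of the same complex. Cox10 and Cox4i1 correlated with each other at -0.892, Atp5e, the small subunit epsilon of the central stalk, and Ndufs3 at 0.914, and Atp5g3 and Ndufb11 at 0.913. In the 7 adult filters of lower correlation 26 of the 47 members were lower than in the other 50 and 21 higher, from Ndufb11 (-0.535), Cox4i1 (-0.514) and Ndufs7 (-0.489) to Ndufv1 (0.438), Atp5e (0.458) and Cox10 (0.534). The shifts of these named members exceeded every difference of age, diet or sex among the members. Other members shifted little, such as Cox6b1 (-0.0101) and Atp5l (0.0317).

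**Figure D5:**
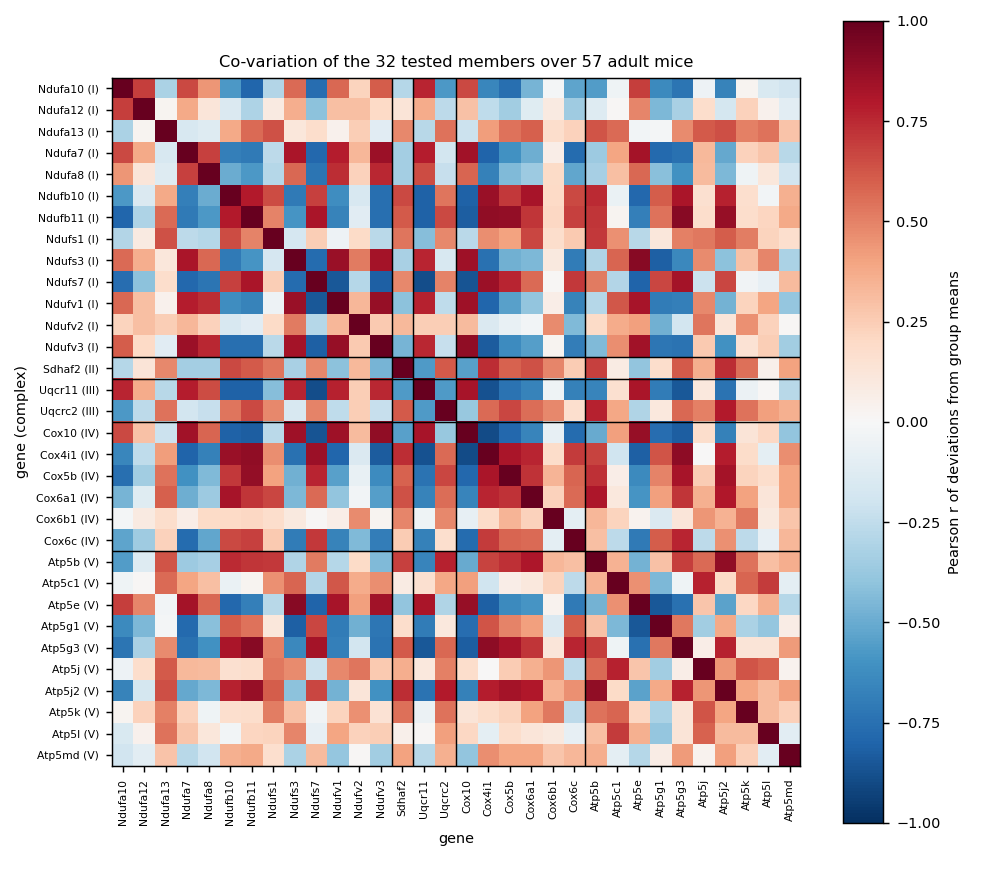
Pearson correlation (colour, -1 to 1) of the deviations from group means for each pair of the 32 tested members over 57 adults, with genes on both axes ordered by complex and black lines between complexes. Blocks of positive and negative correlation cross the complex borders, as for Cox10 with Cox4i1 (-0.892) within complex IV and Atp5e with Ndufs3 (0.914) between complexes V and I.

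Of the 47 members, 8 were represented by 2 features each, which allowed cDNAs of the same gene to be compared across the 57 adults. The 2 features correlated at 0.783 for Cox4i1 (0.339 without the 8 filters), 0.777 for Uqcrc2, 0.683 for Uqcrb, 0.661 for Atp5b (the catalytic beta subunit), 0.525 for Atp5c1 and 0.402 for Sdha (the flavoprotein of succinate dehydrogenase). For Atp5g1 and Atp5md they were opposed, at -0.631 and -0.801, and remained so without the 8 filters (-0.554 and -0.706). The mean of each of these genes therefore averages features that moved against each other. Of these features 14 had a mean above 0 and were tested singly, and 3 of the 210 tests over 15 comparisons were below an unadjusted p of 0.05. All 3 were in middle against young CR mice, beside 2.28% of the 4257 features tested there. They were a feature of Atp5md (0.154 ± 0.0698, unadjusted p = 0.0320, limma), a feature of Atp5g1 (-0.115 ± 0.0562, unadjusted p = 0.0469, limma) and a feature of Uqcrb, a member whose mean was not tested (-0.112 ± 0.0550, unadjusted p = 0.0466, limma).

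Atp5g1, Atp5g2 and Atp5g3 encode the same mature subunit c behind different import sequences, and cDNAs of so similar coding sequence can share label, so their scores are uncertain as measures of single genes. Group medians of Atp5g1 lay between 0.525 (middle CR) and 0.608 (juvenile AL), those of Atp5g2 between -0.760 (middle AL) and -0.660 (young CR), and those of Atp5g3 between 0.89 (middle CR) and 1.05 (young CR). All 3 had their highest adult mean in young CR mice. In middle against young CR mice Atp5g1 differed by -0.0644 ± 0.0482 (unadjusted p = 0.188, limma) and Atp5g3 by -0.115 ± 0.0833 (unadjusted p = 0.175, limma). The partner isoforms of Cox4i1, Cox6a1, Cox6b1 and Cox7a2 were not among the features with a single symbol.

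Other mitochondrial genes were examined from lists of known function. No gene of any list passed adjustment in limma in any comparison. Of 34 further assembly factors listed, 8 were on the filter and 5 tested. Tmem186, a complex I assembly factor, was higher in old than in middle CR mice by 0.125 ± 0.0608 (unadjusted p = 0.0450, adjusted p = 1.00, limma). In old against young AL mice 1 of these 5 was higher and 4 lower, with a median of -0.0260. Of 35 genes for protein import and mitochondrial proteases, 18 were on the filter and 9 tested, and 8 of the 9 were lower in old than in young AL mice (median -0.0390), with 0 below an unadjusted p of 0.05. Of 76 mitochondrial ribosome genes, 24 were on the filter and 11 tested, 6 higher and 5 lower in that comparison (median 0.00600), and Mrpl30, a protein of the large subunit, differed by -0.0840 ± 0.0413 between middle and young AL mice (unadjusted p = 0.0473, limma).

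Smaller numbers of the remaining lists could be tested. They were 4 of 15 carriers and outer membrane channels (Slc25a22, Slc25a3, Vdac2 and Vdac3), 4 of 23 nuclear regulators and mtDNA expression genes (Pprc1, Sirt1, Tfb1m and Tfb2m), 2 of 24 genes of the TCA cycle and pyruvate dehydrogenase (Dld and Pdhb), 2 of 18 of glycolysis (Hk1 and Pfkm) and 1 of 10 antioxidant genes (Gpx4). In old against young AL mice their medians were -0.00950, -0.00150, -0.00300, -0.0350 and -0.00900. Cytochrome c and the other complex III genes listed (3 in all) had no feature with a single symbol.

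Markers of other cell types were read beside these results. Astrocyte markers were on the filter for 5 of 16 genes, 3 of them tested (Cst3, Gja1 and Sparcl1), and all 3 were higher in old than in middle-aged AL mice with a median of 0.126, the comparison in which Ndufs1 had its lowest p. Cst3, a secreted protease inhibitor abundant in astrocytes, was higher in old than in young AL mice by 0.277 ± 0.0943 (unadjusted p = 0.00502, adjusted p = 1, limma), and over the 3 astrocyte genes 2 were higher and 1 lower there (median 0.056). The group median of the astrocyte list was lowest in middle CR (0.143) and highest in old CR mice (0.249), and its part in the members' values was not tested. Rasd2, a striatum-enriched GTPase, was higher under CR than AL in young mice by 0.130 ± 0.0537 (unadjusted p = 0.0190, limma), the comparison in which Ndufv2 had its lowest p. Of the 6 tested striatal neuron markers, 3 were higher and 3 lower in it (median 0.0511). In middle against young CR mice 2 of these 6 were higher and 4 lower (median -0.0449), and all 3 astrocyte genes were lower (median -0.0128). Microglial markers (4 of 14 on the filter, 3 of them with a mean above 0) had group medians from 0.276 to 0.305. The endothelial gene Sparc, 1 of 12 listed, had medians from 0.68 in young AL to 0.83 in juvenile mice. The single oligodendrocyte marker of 17 listed stayed below 0 (medians -0.735 to -0.595), as did the median of the 4 blood genes of 9 (-0.146 to -0.0607), the 3 neuron genes of 15 in every group but young CR (-0.0767 to 0.035) and the 4 immature neuron genes of 11 (-0.306 to -0.235). No choroid plexus gene of the 10 listed was on the filter.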

How the data were processed

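Striatal RNA of 67 mice was measured on nylon cDNA filters. The deposited values are Z scores (score unit, mean 0 and SD 1 per filter), which the authors made from the extracted spot intensities; background treatment and the log base are not given in the sources used here. Members and gene lists were chosen with earlier results of these data known. Of the 8448 features, 4875 had 1 gene symbol, 224 several and 3349 none, and 4861 were matched by gene identifier to current symbols. The 2 filters in reverse feature order were turned. Features of a gene were averaged. Rows with a mean score above 0 were tested with limma 3.58.1 (R 4.3.3) on 12 adult group means, each contrast averaged equally over the sexes, on 20 mice for maturation and on 10 juveniles with a term for sex, and p-values were adjusted by the Benjamini-Hochberg method over all rows at 0.05. The fit was tested on simulated data with independent noise for each row and filter, which lacks the variation that rows share across these filters. The number of filters limits the precision. In each comparison the 3 members with the smallest p in each direction were named, together with the extremes of each complex in old against young and young against juvenile AL mice, the paralog sets, and up to 3 genes of each list; the members quoted from alternative fits, feature pairs and correlations were chosen after their values were seen. Filters of lower correlation were those under 0.95. Alternatives were the filter, quantile normalization, median centring, a correction for position (running median of 101 features), array weights, single features, the compared groups alone, a replicate block, left-out filters and the threshold of the methods. That threshold was used without the analysis of variance that followed it in the study. Models with 2 array axes were chosen after seeing the data.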

Additional observations from a re-analysis of the deposited data

Results flagged for a closer look

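In 27 of 98 sets of scores (the mean of each complex and 9 members, in each group of 8 to 10 mice) the highest or lowest mouse stood apart from the others by Dixon's test at the 95% level. By chance the test at this level picks about 1 in 20 sets of independent scores. The 98 sets share filters and genes, so the 27 cannot be judged against that rate. Of the 27, 22 fell on the 8 filters of lower correlation, which were chosen for departing from the median profile.

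Cox10, the enzyme of heme A synthesis, stood apart on such a filter in 6 groups, at 0.9 in juvenile AL (others at most 0.22), 0.82 in middle AL, 0.63 in old AL, 0.63 in young CR, 0.71 in middle CR and 0.66 in old CR mice. Uqcr11 stood apart upward at 2.08 in middle AL, 2.01 in old AL, 2.04 in middle CR and 2.09 in old CR mice, and Ndufa8 at 0.59 in old AL mice. Scores apart downward on these filters were those of Atp5g3 (0.4 in juvenile AL, 0.45 in middle AL and 0.55 in middle CR mice), Cox5b (-0.24 in juvenile AL, -0.13 in middle AL and 0 in old AL mice) and Sdhaf2 (0.25 in middle AL mice). The mean of complex I stood apart at 0.403 in juvenile AL, 0.397 in old AL and 0.427 in middle CR mice, and that of complex II at -0.437 in middle AL mice.

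The 5 others were on filters of ordinary correlation. Ndufs1 was 0.65 in young AL male 1 (others 0.26 to 0.41) and 0.65 in old AL male 3 (others 0.31 to 0.49). Ndufv2 was 0.31 in old AL female 5 (others 0.5 to 0.7), 1 of the filters that were turned. In old CR female 4 Ndufv2 was 0.38 (others 0.56 to 0.72) and the complex I mean 0.114 (others 0.267 to 0.367).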

How the results depend on the processing

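With each mouse left out in turn (57 adult, 20 maturation and 10 juvenile fits), the number of rows and of members called stayed at 0 to 0 in every comparison. Of 1453 alternative values for the named differences, 1399 kept their direction uncalled, 50 turned and 4 kept their direction and were called. Array weights called 5 of 32 members between middle and young CR mice, beside 13.2% of all rows. The named ones were Cox10 (0.168), Ndufa13 (-0.113) and Atp5g3 (-0.128). The methods' threshold called 1 of 32 members, Ndufs1 between old and middle AL mice (0.107), beside 0.565% of rows.

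Rows called under array weights numbered 514 for middle against young CR, 8 for old against middle CR, 418 for old against young CR, 4 for CR against AL in old mice, and 1 each for old against young AL, the age by diet term of old against middle and young against juvenile mice. The methods' threshold, which adjusts no p, called 20 rows for middle against young AL, 22 for old against middle AL, 11 for old against young AL, 58 for middle against young CR, 36 for old against middle CR, 5, 10 and 1 for CR against AL in young, middle and old mice, 12 over all ages, 1 and 4 for the age by diet terms of old against young and old against middle, 5 for sex, 22 for young against juvenile and 34 within juveniles. Models with 2 axes called 2 rows for old against young AL and 1 each for old against young CR and young against juvenile mice, and the position correction without a filter called 1 row for sex. The other alternatives called 0 rows.

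Median co-variation of members was 0.20 without the 8 filters, 0.206 after position correction and 0.0172 without 2 axes. Of the differences that turned, 14 did so with the 2 reversed filters used as deposited: Cox6a1 in old against middle AL (-0.238), Cox6c (-0.190), Ndufs7 (-0.316), Uqcrc2 (0.0445) and Atp5g3 (-0.108) in old against young AL, Ndufv3 (-0.0290), Sdhaf2 (0.126), Cox6b1 (0.112) and Ndufs7 (0.333) in CR against AL of old mice, Cox6b1 (0.0173) and Atp5k (0.0547) in CR against AL over all ages, and the age by diet terms of Atp5g3 (0.0222), Ndufa13 (0.0151) and Ndufa10 (0.0543). Without these 2 filters Sdhaf2 turned in old against young AL (0.00525). Quantile normalization turned Uqcr11 in old against young AL (0.00983) and young against juvenile mice (-0.00648).

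Features tested singly opposed their gene's mean for Atp5g1 in middle against young AL (-0.0100) and young against juvenile (0.00600), Atp5md in old against young CR (-0.0423), CR against AL at middle age (0.00100) and the old against middle age by diet term (-0.0123), and Atp5c1 in CR against AL of old mice (-0.0250) and that same term (-0.00200). Without the 8 filters 7 turned: Atp5g1 in middle against young AL (-0.00988), Uqcr11 in old against young AL (0.0320) and young against juvenile (-0.0408), Ndufs7 in the latter (0.00500), the age by diet terms of Ndufs1 (0.00875) and Cox5b (0.00075), and Cox4i1 within juveniles (-0.0487). A term for those filters turned Uqcr11 in the same comparisons (0.0205 and -0.0238) and Cox4i1 (-0.0487). Position correction turned Sdhaf2 in old against young AL (0.00400) and old against middle CR (0.0130) and Uqcr11 in young against juvenile mice (-0.0240), with the same values without a filter. Array weights turned Atp5g1 in middle against young AL (-0.0143), Uqcr11 in old against young AL (0.0201), Sdhaf2 in CR against AL of old mice (0.00149), the age by diet term of Ndufa10 (0.0164), Atp5k for sex (0.00266) and Cox4i1 within juveniles (-0.0624). With 2 axes Cox6c (-0.00190) and Atp5g1 (-0.0111) turned in middle against young AL, and Uqcr11 in old against young AL (0.0173) and young against juvenile mice (-0.0135). The cause of these turns was not tested.

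The filters' title numbers form 5 runs with about 1 mouse of each group. Same-run pairs had a median correlation of deviations of 0.246 (-0.835 to 0.971, 263 of 417 above 0.1) and different-run pairs of -0.0408 (648 of 1665 above 0.1), and 32 of 67 filters correlated best with their own of the 5 runs. Filters of a run thus deviated together more often than filters of different runs. Since the labels give the runs no meaning and not every same-run pair was above 0.1, they were not taken as pairs, and the part of the runs in the results was not tested beyond the block. With the runs as a replicate block 0 members and 0 rows were called in each comparison it could be fitted to, and no named difference turned. No depth is known for the filters, and their number limits what could be detected.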

Other observations

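Ndufb9, an accessory subunit of complex I whose mean score of -0.0418 kept it out of the test, was with Atp5md the other of the 47 members whose 6 adult group means spanned more (0.0928) than its SD within groups (0.0759), from -0.0990 in middle AL to -0.00625 in old CR mice. Ndufb9 had 1 feature, while Atp5md averages 2 opposed features, which lowers its SD.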
